A study of Homo sapiens with 6 samples.

Results

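Aminoacyl-tRNA synthetases and the factors of their complex were followed in the human fibrosarcoma cell line HT1080. The genes were those whose symbol in the platform annotation is a one-letter amino acid code followed by ARS1 or ARS2, with EPRS1, FARSA, FARSB, AIMP1, AIMP2 and EEF1E1, taken from probe sets with a single gene symbol. This gave 27 genes on 39 probe sets, of 11963 singly named genes on the array. They were 15 enzymes ending in 1 (EPRS1 among them), 10 ending in 2, the unnumbered subunit FARSA and the complex factor AIMP1. FARSB, AIMP2 and EEF1E1 had no singly named probe set and are not analysed here, and 5 probe sets that list such a symbol beside another gene were left out.

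Total RNA had been measured on 6 single-channel arrays of 22283 probe sets, in 3 groups of 2. One group was transfected with the pGUS vector expressing GFP and an siRNA against the mRNA of MT1-MMP, a membrane-anchored collagenase. The next carried the same vector with an siRNA against integrin alpha3, a subunit of a laminin receptor, and the mock group carried the pGUS vector expressing GFP only. All cells thus share the line, the vector and GFP, the mock vector carries no siRNA, and the sources used here do not say whether the cells were clones or pools. The labels do not say whether separate cultures stand behind the arrays of a pair, so p-values here describe the spread between these arrays alone, and that spread may be technical.

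Aminoacyl-tRNA synthetases join each amino acid to its tRNA, the step that fixes the reading of the genetic code. Most amino acids have a nuclear gene for the cytosolic enzyme and another for the mitochondrial enzyme, while GARS1 and KARS1 each supply both compartments. In the cytosol, several enzymes sit in a multisynthetase complex held together by the scaffold factors AIMP1, AIMP2 and EEF1E1. Many cytosolic synthetase genes are known targets of ATF4, the transcription factor of the amino acid stress response, which binds a composite element in their promoters.

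RefSeq promoter windows (build GRCh38.p14, 250 bases before to 50 after the start) were found for 24 of the 27 genes, and LARS1, VARS1 and YARS1 had none. Each window was searched on both strands for TGATGNAA, the core of the amino acid response element. The core was found in 6 of 12 cytosolic and 1 of 10 mitochondrial enzymes, against 4.46% of 27305 genes with a window. The stretches are shown to give the matched letters and their places. The grouping of enzymes by ATF4 regulation further on was not taken from these matches. Each has the match in capitals with 20 bases on each side, read 5′ to 3′ on the strand of the gene.
AARS1, chr16:70289666-70289713, minus strand: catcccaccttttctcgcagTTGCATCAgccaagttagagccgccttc
CARS1, chr11:3057398-3057445, minus strand: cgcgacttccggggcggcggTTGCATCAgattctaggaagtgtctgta
GARS1, chr7:30594825-30594872, plus strand: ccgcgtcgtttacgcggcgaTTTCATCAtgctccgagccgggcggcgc
IARS1, chr9:92293683-92293730, minus strand: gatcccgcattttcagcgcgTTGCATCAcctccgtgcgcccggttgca
NARS1, chr18:57621795-57621842, minus strand: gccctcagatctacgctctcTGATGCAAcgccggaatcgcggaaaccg
TARS1, chr5:33440947-33440994, plus strand: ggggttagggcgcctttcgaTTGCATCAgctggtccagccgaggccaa
YARS2, chr12:32756067-32756114, minus strand: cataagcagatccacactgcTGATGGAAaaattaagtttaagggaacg
In 5 of the 7 the match lies on the strand opposite to the gene. The match starts within 33 bases of the transcript start in CARS1, GARS1, IARS1, NARS1 and TARS1, and at 187 and 197 bases before it in AARS1 and YARS2. A match describes these letters and is no evidence that ATF4 binds there.

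The windows of HARS1 and HARS2, the cytosolic and mitochondrial histidine enzymes, overlap, since the genes start 85 bases apart on opposite strands of chromosome 5. The shared 184 bases are shown because they hold the starts of a cytosolic and a mitochondrial member. Only the part between the 2 starts precedes both genes. Capitals mark its 2 matches to the ETS site CCGGAAGT, searched on both strands and held by 4.95% of genes with a window. The site is not particular to this pair. It was found in 6 of the 24 members with a window, 5 of 12 cytosolic and 1 of 10 mitochondrial enzymes.
HARS1 and HARS2, chr5:140691321-140691504, plus strand (that of HARS2): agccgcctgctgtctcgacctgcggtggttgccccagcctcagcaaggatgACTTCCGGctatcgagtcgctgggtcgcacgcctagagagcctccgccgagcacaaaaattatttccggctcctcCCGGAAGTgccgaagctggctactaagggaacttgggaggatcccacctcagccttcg

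The values are the deposited linear signals, and tests were run on log2(signal + 32), a scale that understates changes of dim genes. Of the 27 genes, 26 lay above the filter on dim probe sets and entered the fit of 8045 genes, each through its brightest probe set. RARS2, the mitochondrial arginine enzyme, did not pass it, with signals of 6.1 and 2.6 with MT1-MMP siRNA, 29.0 and 7.1 under alpha3 siRNA, and 1.9 and 18.8 on the mock arrays. Signals of different genes come from different probes and are not compared with each other.

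With MT1-MMP siRNA against mock, the synthetase genes showed small differences, led by FARSA and NARS2 on the lower side and CARS1 on the higher side. In limma 0 of the 26 genes passed an adjusted p of 0.05, as did 0% of all genes tested, and the lowest adjusted p among the 26 was 0.248. At an unadjusted p under 0.05 there were 3 of the 26, 1 higher and 2 lower, beside 14.4% of all genes. Arrays were without overlap for 11 of the 26, 2 of them higher and 9 lower, beside 49.9% of all genes (24.6% higher and 25.3% lower). The median log2 fold change of the 26 was -0.10, beside 0.0024 for all genes, and 17 of the 26 were below 0, beside 49.7% of all genes. The median was 0.060 without replicate 1 of the MT1-MMP siRNA group and -0.24 without its replicate 2, so the sign depended on which of those arrays was kept.

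**Figure D1:**
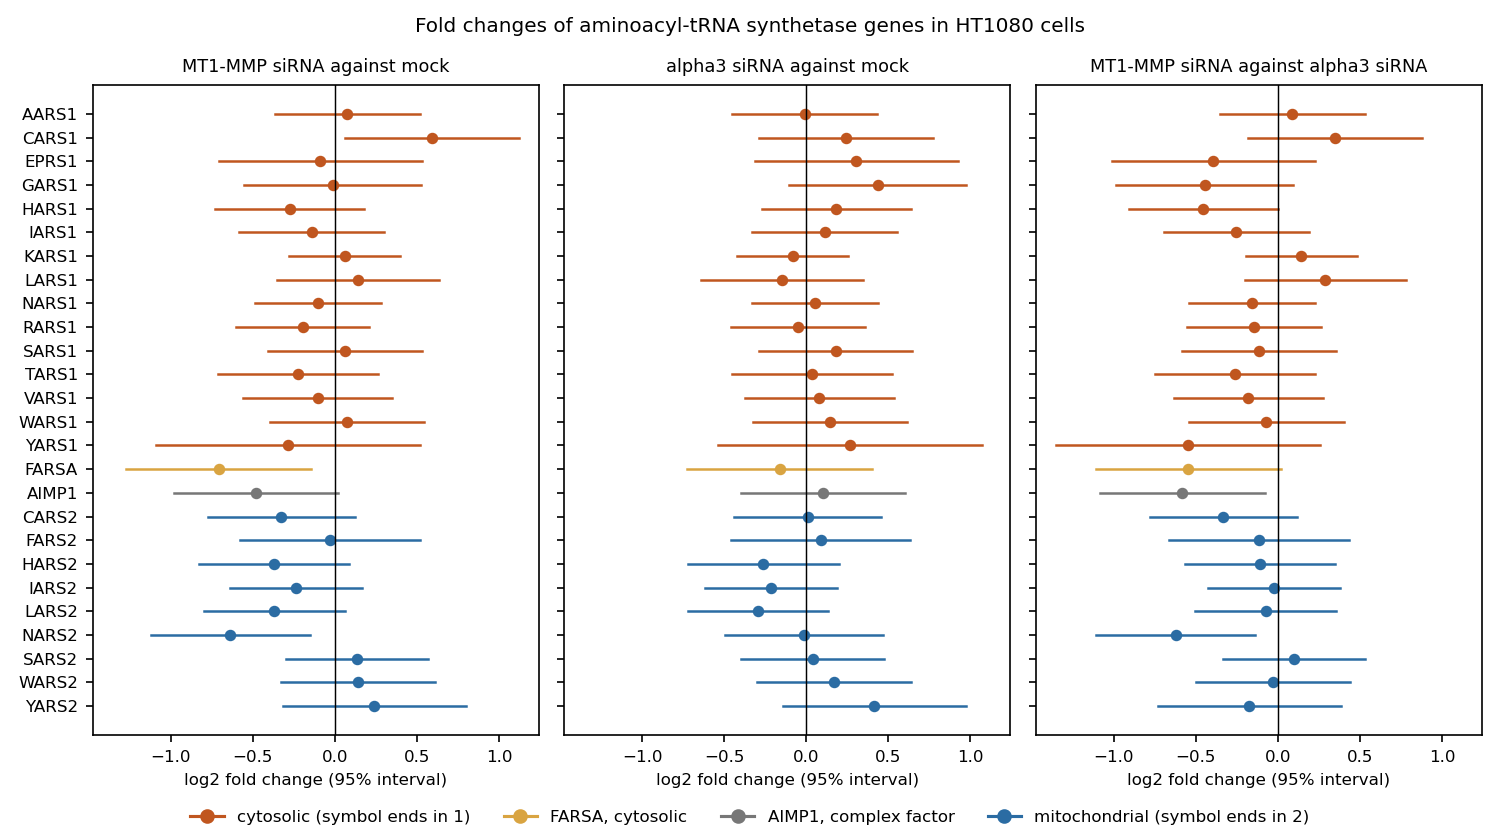
Log2 fold changes (points) with 95% intervals from limma (lines) of the 26 genes in the 3 comparisons, coloured by class. Most intervals cross 0, and for MT1-MMP siRNA against mock CARS1 lies highest at 0.59 and FARSA lowest at -0.71.

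Among the 15 cytosolic enzymes the median log2 fold change with MT1-MMP siRNA against mock was -0.089, with 6 above 0 and 9 below. Without replicate 1 of the MT1-MMP siRNA group it was 0.12, and without replicate 2 it was -0.23. CARS1, the cytosolic cysteine enzyme, had signals of 1799 and 2682 with MT1-MMP siRNA and 1635 and 1284 on the mock arrays. Both arrays with the siRNA lay above both mock arrays, and the fitted log2 difference was 0.59 (limma, SE 0.23 and adjusted p = 0.298). Without replicate 1 of the MT1-MMP siRNA group it was 0.87, without replicate 2 it was 0.31, and the other CARS1 probe set gave 0.30.

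The groups also did not overlap for HARS1 and RARS1, both lower. HARS1 had 727 and 839 with MT1-MMP siRNA against 1029 and 879 on the mock arrays. RARS1, the arginine enzyme of the multisynthetase complex, had 854 and 982 under MT1-MMP siRNA against 1035 and 1074 in mock. The nearest arrays of the 2 groups lay close together in both genes. The remaining cytosolic enzymes overlapped between the groups.

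The enzymes of both compartments, EPRS1 and WARS1 had small fitted differences from mock with MT1-MMP siRNA, with wide intervals. KARS1, the lysine enzyme of both compartments, had 5258 and 5734 with MT1-MMP siRNA and 5346 and 5180 on the mock arrays, which is 0.061 in log2 (SE 0.15, 95% interval -0.28 to 0.40). GARS1, the glycine enzyme of both compartments, had 1222 and 1865 under MT1-MMP siRNA against 1676 and 1384 in mock, which is -0.012 in log2 (95% interval -0.55 to 0.53). EPRS1, a single protein that charges both glutamate and proline tRNAs, had 607 and 1123 under MT1-MMP siRNA against 896 and 867 in mock, which is -0.089 in log2 (95% interval -0.71 to 0.53). For GARS1 and EPRS1 the lower and the higher of the siRNA arrays lay on either side of both mock arrays. WARS1, the tryptophan enzyme, which is known to be induced by interferon gamma, had 502 and 598 under MT1-MMP siRNA against 552 and 487 in mock, which is 0.075 in log2 (95% interval -0.40 to 0.55). The sign of each of these 4 values turned under at least 1 alternative, and the other probe sets of KARS1 and WARS1 gave -0.32 and -0.27.

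FARSA, the catalytic alpha subunit of the cytosolic phenylalanine enzyme, had 605 and 639 with MT1-MMP siRNA and 1027 and 1045 on the mock arrays. The pairs were tight and far apart, with a fitted log2 difference of -0.71 (limma, SE 0.25 and adjusted p = 0.265). Its other probe set had 618 and 734 under MT1-MMP siRNA against 773 and 753 in mock. That probe set had a log2 fold change of only -0.17, so the size of the FARSA difference depended on the probe set. AIMP1, the scaffold factor whose cleaved form is also known as a secreted cytokine, had 758 and 1126 under MT1-MMP siRNA against 1347 and 1259 in mock. Both arrays lay below both mock arrays, and the fitted log2 difference was -0.48 (SE 0.22 and adjusted p = 0.361). It was -0.20 without replicate 1 and -0.76 without replicate 2 of the MT1-MMP siRNA group, and the other probe set of AIMP1 gave -0.074.

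Among the 9 mitochondrial enzymes above the filter the median log2 fold change with MT1-MMP siRNA against mock was -0.24, with 3 above 0 and 6 below. Without 1 array it ranged from -0.26 to -0.20. The groups did not overlap for 6 of the 9, 1 higher and 5 lower, and for 3 of the 15 cytosolic enzymes, 1 higher and 2 lower, beside 49.9% of all genes (24.6% higher and 25.3% lower). No test of the difference between the compartments was made, since the members are not replicates.

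NARS2, the mitochondrial asparagine enzyme, had 176 and 248 with MT1-MMP siRNA and 345 and 340 on the mock arrays. The fitted log2 difference was -0.64 (limma, SE 0.21 and adjusted p = 0.248), and it was -0.42 without replicate 1 of the MT1-MMP siRNA group and -0.85 without replicate 2. HARS2 had 260 and 339 under MT1-MMP siRNA against 408 and 379 in mock, which is -0.37 in log2 (SE 0.20 and adjusted p = 0.433). Leaving out the same arrays gave -0.20 and -0.54 for HARS2. LARS2, the mitochondrial leucine enzyme, had 181 and 186 under MT1-MMP siRNA against 233 and 260 in mock, which is -0.37 in log2 (SE 0.19 and adjusted p = 0.404). The other LARS2 probe set gave -0.11. In these 3 genes both arrays with the siRNA lay below both mock arrays. CARS2 and IARS2, which charge cysteine and isoleucine tRNAs in mitochondria, also lay below mock without overlap. SARS2, for serine, lay above mock, with its nearest arrays at 227.3 with MT1-MMP siRNA and 226.5 on mock.

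**Figure D2:**
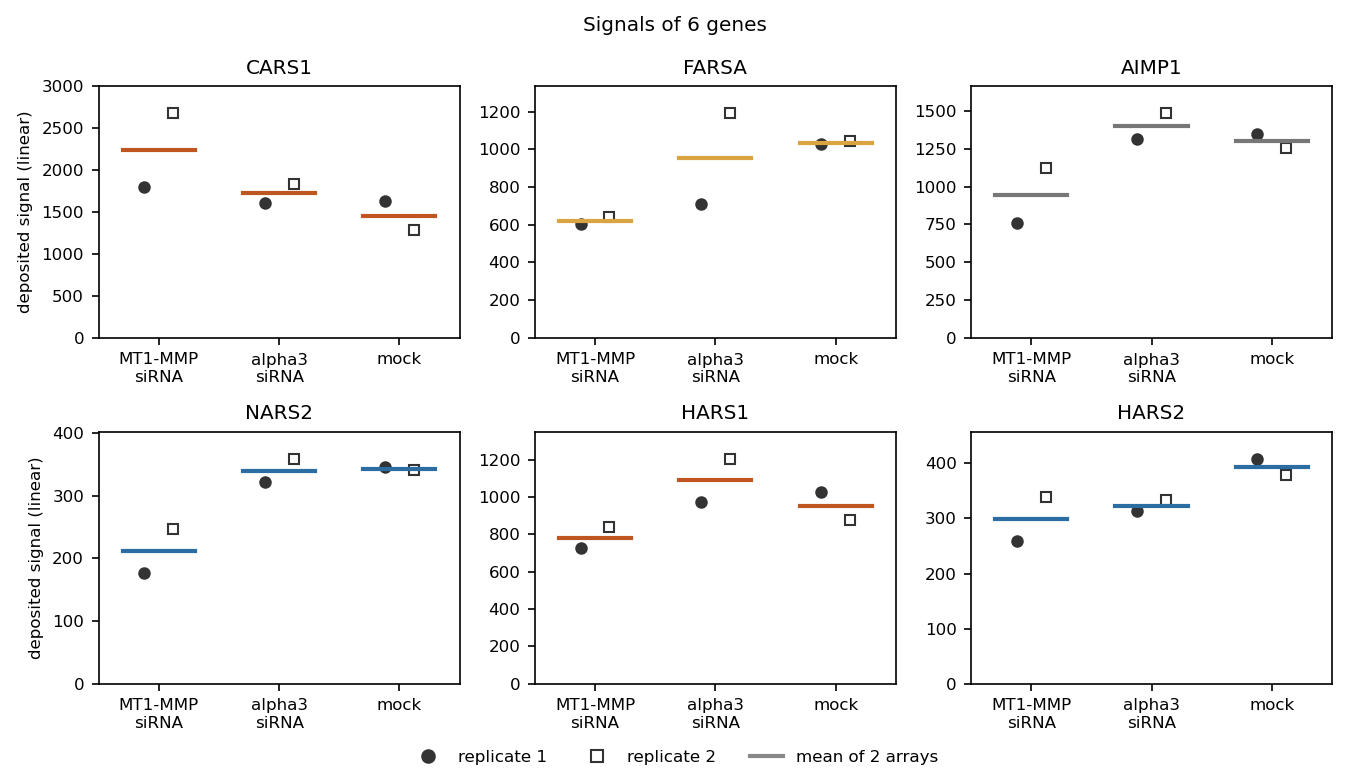
Deposited linear signals of 6 genes by group, with replicate 1 as a filled circle, replicate 2 as an open square and the mean of the 2 arrays as a bar. FARSA and NARS2 lie below both other groups with MT1-MMP siRNA on every array, and the nearest points are 639 and 711 for FARSA.

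With alpha3 siRNA against mock, the synthetase genes showed small fitted differences, with GARS1, YARS2 and EPRS1 highest and LARS2 and HARS2 lowest. In limma 0 of the 26 passed, beside 0.0249% of all genes, and 0.870 was the lowest adjusted value. Without adjustment 0 of the 26 had a p under 0.05, beside 5.73% of all genes (2.51% higher and 3.22% lower). The groups did not overlap for 7 of the 26, 4 higher and 3 lower, beside 34.4% of all genes (16.4% higher and 18.0% lower). The median log2 fold change was 0.066 for the 26 genes, 0.11 for the 15 cytosolic and 0.0086 for the 9 mitochondrial enzymes, beside -0.014 for all genes, and 9 of the 26 were below 0, beside 52.0% of all genes. The median of the 26 was -0.00014 without mock replicate 2 and 0.095 without alpha3 siRNA replicate 1. Leaving out 1 array at a time moved the cytosolic median between 0.010 (without alpha3 siRNA replicate 2) and 0.21 (without mock replicate 1), and the mitochondrial median between -0.026 and 0.022 (without alpha3 siRNA replicates 2 and 1).

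GARS1 had 1885 and 2271 with alpha3 siRNA and 1676 and 1384 on the mock arrays. The pairs did not overlap, and the fitted log2 difference was 0.43 (limma, SE 0.24 and adjusted p = 0.870). EPRS1 had 1117 and 1077 under alpha3 siRNA against 896 and 867 in mock, which is 0.30 in log2 (SE 0.27 and adjusted p = 0.915), with its other 2 probe sets at 0.44 and 0.19. YARS2, the mitochondrial tyrosine enzyme, had 269 and 225 with alpha3 siRNA and 154 and 202 in mock, which is 0.41 in log2 (SE 0.24 and adjusted p = 0.875). It was 0.25 when mock replicate 1 was left out and 0.58 when mock replicate 2 was. These were the largest positive values among the members whose arrays did not overlap, and none passed the threshold.

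LARS2 had 189 and 201 with alpha3 siRNA, while mock had 233 and 260, which is -0.29 in log2 (limma, SE 0.19 and adjusted p = 0.893). HARS2 had 313 and 333 under alpha3 siRNA against 408 and 379 in mock, which is -0.26 in log2 (SE 0.20 and adjusted p = 0.911). IARS2 had 851 and 907 under alpha3 siRNA against 1000.3 and 1047 in mock, which is -0.21 in log2 (SE 0.18 and adjusted p = 0.915). All 3 are mitochondrial enzymes and lay below mock with both siRNAs. The comparisons of the 2 siRNAs with mock share the mock arrays, so this is not repeated evidence. AIMP1 (0.10), KARS1 (-0.083) and WARS1 (0.14) had adjusted p-values between 0.938 and 0.962. The other AIMP1 probe set gave 0.42, and AIMP1 was at 0.016 when alpha3 siRNA replicate 2 was left out and at 0.19 when replicate 1 was. Signs turned for KARS1 (0.0060) and WARS1 (-0.017) when alpha3 siRNA replicate 1 was left out, and on the other WARS1 probe set (-0.0099).

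HARS1 and HARS2, which share the promoter stretch shown earlier, took different places with alpha3 siRNA. HARS1 had 974 and 1204 with alpha3 siRNA and 1029 and 879 on the mock arrays, so its groups overlapped, while HARS2 lay below mock on both arrays. The fitted log2 differences were 0.18 for HARS1 and -0.26 for HARS2, each with an SE of 0.20, and the difference between the 2 genes was not tested. With MT1-MMP siRNA against mock both genes lay lower without overlap, at -0.27 for HARS1 and -0.37 for HARS2.

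Between the 2 siRNA groups, most synthetase genes had a lower mean log2 value with MT1-MMP siRNA than with alpha3 siRNA. NARS2, AIMP1 and FARSA had the lowest log2 differences among those whose arrays did not overlap, and YARS1, whose arrays overlapped, was at -0.55. In limma 0 of the 26 passed, beside 1.39% of all genes, and 0.133 was the lowest adjusted value. Without adjustment 3 of the 26 had a p under 0.05, all lower, beside 23.4% of all genes (11.7% lower). No overlap was seen for 10 of the 26, 1 higher and 9 lower, beside 53.9% of all genes (28.0% higher and 25.9% lower). Of the 26 genes, 21 were below 0, beside 48.1% of all genes, and the median was -0.15, beside 0.022 for all genes. It was -0.034 without replicate 1 of the MT1-MMP siRNA group and -0.27 without its replicate 2. The median was -0.16 for the cytosolic and -0.11 for the mitochondrial enzymes. Without 1 array these ranged from -0.27 to -0.032 and from -0.21 to -0.011, with the ends nearest to 0 on leaving out MT1-MMP siRNA replicate 1.

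NARS2 had 176 and 248 with MT1-MMP siRNA, while alpha3 siRNA gave 321 and 359, which is -0.62 in log2 (limma, SE 0.21 and adjusted p = 0.133). AIMP1 had 758 and 1126 under MT1-MMP siRNA against 1317 and 1487 under alpha3 siRNA, which is -0.58 in log2 (SE 0.22 and adjusted p = 0.162). AIMP1 was at -0.31 when MT1-MMP siRNA replicate 1 was left out and at -0.86 when replicate 2 was, NARS2 was at -0.41 and -0.84 in those cases, and the other AIMP1 probe set gave -0.49. HARS1 had 727 and 839 under MT1-MMP siRNA against 974 and 1204 under alpha3 siRNA, which is -0.46 in log2 (SE 0.20 and adjusted p = 0.212). These 3 genes are those with an unadjusted p under 0.05, and in each of them both arrays with MT1-MMP siRNA lay below both with alpha3 siRNA.

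FARSA had 605 and 639 with MT1-MMP siRNA, and alpha3 siRNA gave 711 and 1193, which is -0.54 in log2 (limma, SE 0.25 and adjusted p = 0.228). The alpha3 siRNA pair was itself wide, and the value was -0.18 without its replicate 2 and -0.91 without its replicate 1. GARS1 had 1222 and 1865 under MT1-MMP siRNA against 1885 and 2271 under alpha3 siRNA, which is -0.45 in log2 (SE 0.24 and adjusted p = 0.291). GARS1 was at -0.15 when MT1-MMP siRNA replicate 1 was left out and at -0.74 when replicate 2 was. CARS2 had 211 and 172 under MT1-MMP siRNA against 242 and 255 under alpha3 siRNA, which is -0.33 in log2 (SE 0.20 and adjusted p = 0.338), and -0.21 when MT1-MMP siRNA replicate 2 was left out. KARS1 was at 0.14 (95% interval -0.20 to 0.48), and WARS1 at -0.069 (95% interval -0.54 to 0.40). EPRS1 was at -0.39 (95% interval -1.01 to 0.22). Signs turned for EPRS1 (0.033) when MT1-MMP siRNA replicate 1 was left out, for WARS1 (0.092) when alpha3 siRNA replicate 1 was, and for KARS1 on its other probe set (-0.24). LARS1, the leucine enzyme of the complex that also acts as a leucine sensor, was the gene that lay higher without overlap, with 625 and 607 under MT1-MMP siRNA against 583 and 425 under alpha3 siRNA.

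Much of the spread of the cytosolic enzymes lay between the 2 MT1-MMP siRNA arrays. YARS1, the cytosolic tyrosine enzyme, had 692 on replicate 1 and 1360 on replicate 2, EPRS1 had 607 and 1123, and GARS1 had 1222 and 1865. TARS1, for threonine, had 1102 and 1625, and IARS1, for isoleucine, had 1662 and 2239. Of the 15 cytosolic enzymes 14 were brighter on replicate 2 than on replicate 1, beside 51.4% of all genes, and LARS1 was the exception. The median difference between these arrays, replicate 2 minus replicate 1, was 0.25 on the log2 scale for cytosolic enzymes, beside 0.0099 for all genes. The 14 of 15 held when the arrays were scaled by quantiles or by the 75th percentile.

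The mitochondrial enzymes divided, with 6 of 9 brighter on replicate 2 of the MT1-MMP siRNA pair and a median difference of 0.17. In the alpha3 siRNA pair 11 of the 15 cytosolic and 6 of the 9 mitochondrial enzymes were brighter on replicate 2, beside 51.2% of all genes. In the mock pair 3 of the 15 cytosolic and 5 of the 9 mitochondrial enzymes were, beside 49.7%. YARS1 was the most spread member within both the MT1-MMP siRNA and the mock pair, with 1493 and 947 on the mock arrays, and had 1184 and 1740 with alpha3 siRNA. These counts are descriptions, since genes on an array are not independent.

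**Figure D3:**
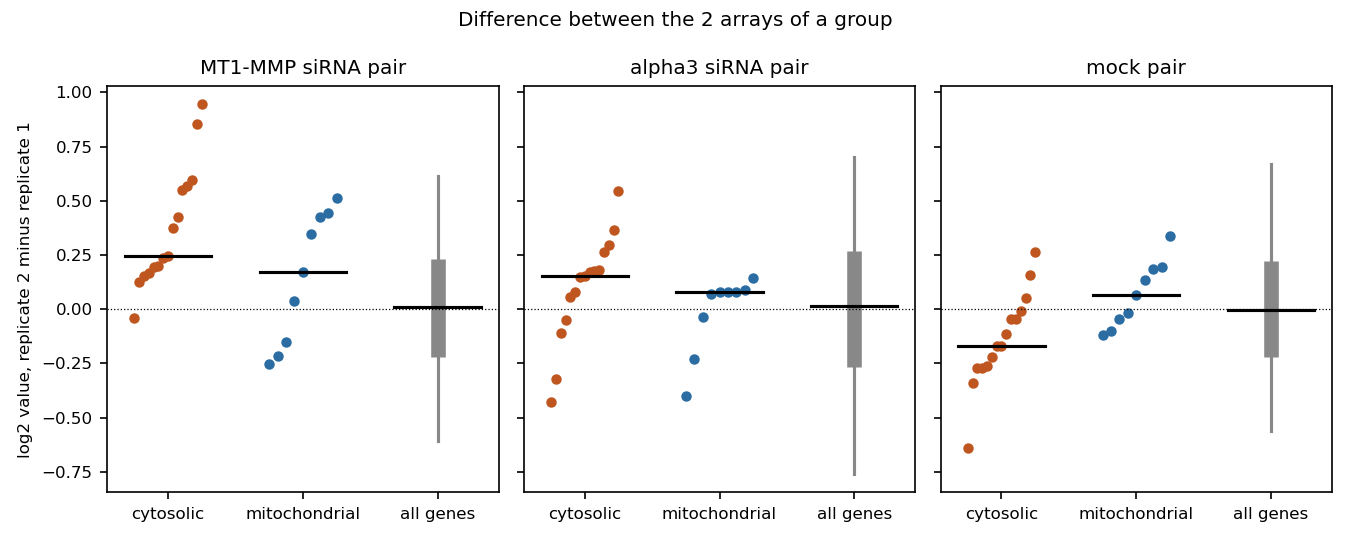
Log2 value on replicate 2 minus that on replicate 1 within each group, for cytosolic enzymes and mitochondrial enzymes (points, 1 per gene, with the median as a bar) and for all genes tested (bar from the 25th to the 75th percentile, line from the 5th to the 95th, with the median). In the MT1-MMP siRNA pair 14 of 15 cytosolic enzymes lie above 0, and in the mock pair 3 of 15 do.

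Genes of the amino acid stress response were compared within the same pairs. On a list of 35 such genes, 30 were above the filter, and 23 of them were brighter on replicate 2 than on replicate 1 of the MT1-MMP siRNA pair, beside 51.4% of all genes. Their median difference was 0.60 on the log2 scale, beside 0.0099 for all genes. In the alpha3 siRNA pair 22 of the 30 were brighter on replicate 2, beside 51.2% of all genes, and in the mock pair 11, beside 49.7%. Examples chosen after their values were seen are ASNS, asparagine synthetase, with 239 and 1100 on the 2 MT1-MMP siRNA arrays, and CHAC1, which degrades glutathione, with 19.5 and 274. The lower CHAC1 value lies under the filter signal of 47.5. ASNS was also brighter on replicate 2 in the other pairs, with 338 and 665 under alpha3 siRNA and 277 and 649 on mock. ATF4 itself had 1796 and 3157 with MT1-MMP siRNA, 2047 and 3222 under alpha3 siRNA, and 2295 and 1699 on mock. Against mock, 0 of the 30 passed in limma with either siRNA. An unadjusted p under 0.05 was found for 5 of them with MT1-MMP siRNA, beside 14.4% of all genes, and for 1 with alpha3 siRNA, beside 5.73%, so both counts were near the share of all genes. Their median log2 difference from mock was 0.19 for MT1-MMP siRNA and 0.20 for alpha3 siRNA. The value for MT1-MMP siRNA was 0.52 when its replicate 1 was left out and -0.17 when its replicate 2 was. That for alpha3 siRNA was 0.39 when its own replicate 1 was left out and -0.013 when its replicate 2 was, so both signs depended on 1 array.

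On MT1-MMP siRNA replicates 1 and 2, relative to the mock mean, the median log2 value was -0.23 and 0.12 for the cytosolic enzymes and -0.17 and 0.52 for the amino acid stress genes. It was -0.20 and -0.20 for the mitochondrial enzymes, although single ones differed between these arrays by -0.25 (CARS2) to 0.51 (YARS2). The spiked hybridisation controls were also unlike on these arrays, at a median 2.30 and 1.29 times their mock mean, while the alpha3 siRNA arrays had 0.812 and 0.841 times and the mock arrays 0.927 and 1.07 times. Their part in these differences was not tested.

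**Figure D4:**
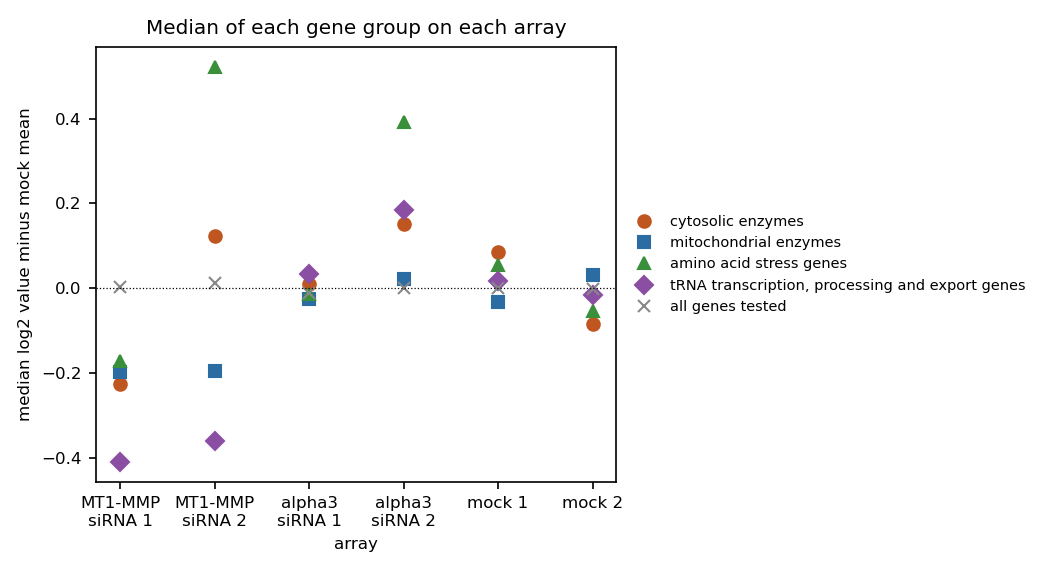
Median, over the genes of each group, of the log2 value minus the mean of the 2 mock arrays, on each of the 6 arrays. Cytosolic enzymes and amino acid stress genes lie lower on MT1-MMP siRNA replicate 1 (-0.23 and -0.17) than on replicate 2 (0.12 and 0.52). The median of the mitochondrial enzymes is -0.20 on both, although 6 of the 9 were brighter on replicate 2.

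The enzymes were also grouped by regulation, class and complex. The 11 cytosolic enzymes widely described as ATF4 targets had a median log2 fold change of -0.012 with MT1-MMP siRNA against mock, and the other 5 cytosolic genes (FARSA, HARS1, KARS1, RARS1 and VARS1) of -0.20. With alpha3 siRNA against mock these were 0.14 and -0.052. Within the MT1-MMP siRNA pair, replicate 2 minus replicate 1, the ATF4 targets differed by a median of 0.42 and the other 5 by 0.17. The same medians were 0.15 and 0.18 in the alpha3 siRNA pair, and -0.17 and -0.045 in the mock pair. All 5 of the other genes were also brighter on replicate 2 of the MT1-MMP siRNA pair. Synthetases fall into 2 classes by the fold of the catalytic domain. The 12 class I enzymes had a median of -0.12 and the 12 class II enzymes of -0.067 with MT1-MMP siRNA against mock, and 0.096 and 0.038 with alpha3 siRNA. The 6 tested members of the multisynthetase complex (AIMP1, EPRS1, IARS1, KARS1, LARS1 and RARS1) had medians of -0.11 and 0.025 in those comparisons. No member of these groupings passed in limma. All genes had medians of 0.0024 and -0.014 in those comparisons. On MT1-MMP siRNA replicates 1 and 2, relative to the mock mean, the ATF4 targets had medians of -0.23 and 0.19. Class I enzymes had -0.17 and 0.096, class II enzymes -0.28 and 0.039, and the complex members -0.32 and 0.096. The sign of each thus depended on which of those arrays was kept. The other 5 cytosolic genes had -0.29 and -0.099.

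**Figure D5:**
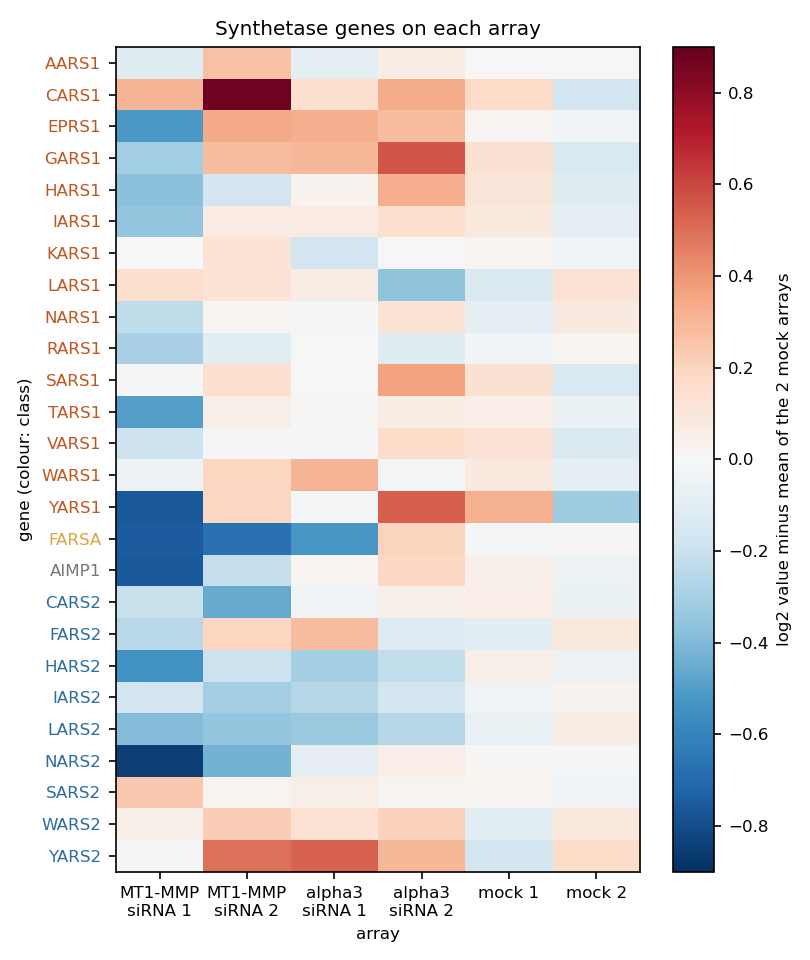
Log2 value of each of the 26 genes on each array minus the mean of the 2 mock arrays (red higher, blue lower), with gene names coloured by class. EPRS1, TARS1 and YARS1 are blue on MT1-MMP siRNA replicate 1 and not on replicate 2, while FARSA and NARS2 are blue on both.

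Genes that make and process tRNAs were set beside the enzymes that charge them. On a list of 39 genes for tRNA transcription, processing, modification and export, 29 were above the filter. With MT1-MMP siRNA against mock their median log2 fold change was -0.31, 25 of 29 were below 0, and 0 passed in limma, with 10 lower and 0 higher at an unadjusted p under 0.05 (all genes 7.66% and 6.76%). RPP40, a subunit of the RNases P and MRP, had 172 and 264 with MT1-MMP siRNA, 769 and 750 under alpha3 siRNA, and 750 and 404 on the mock arrays. POLR3G and POLR3K, subunits of RNA polymerase III, had log2 fold changes of -1.04 and -0.85 with MT1-MMP siRNA against mock (limma adjusted p = 0.248 and 0.185).

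Against alpha3 siRNA, these 29 genes had a median log2 fold change of -0.50 with MT1-MMP siRNA, beside 0.022 for all genes. This median ranged from -0.50 to -0.29 without 1 array. Below 0 were 27 of the 29, beside 48.1% of all genes. At an unadjusted limma p under 0.05, 14 were lower and 0 higher (all genes 11.7% and 11.7%). After adjustment 2 of the 29 were lower with MT1-MMP siRNA and 0 higher in limma, beside 1.39% of all genes. They were RPP40 (log2 fold change -1.69, SE 0.30, adjusted p = 0.0411) and POLR3K (-1.46, SE 0.22, adjusted p = 0.0298). Neither passed when any single array of these groups was dropped, and adjusted p-values then ran from 0.0647 to 0.268. Their log2 fold changes then lay between -1.95 and -1.42 for RPP40 and between -1.72 and -1.21 for POLR3K. With alpha3 siRNA against mock the median of the 29 was 0.13 and 0 passed in limma, with 1 at an unadjusted p under 0.05, beside 5.73% of all genes. That median was 0.034 when alpha3 siRNA replicate 2 was left out. XPOT, the exporter of tRNAs and an amino acid stress target itself, had 557 and 827 with MT1-MMP siRNA, 652 and 893 under alpha3 siRNA, and 723 and 692 on the mock arrays.

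Of 23 genes of mitochondrial translation, tRNA modification and transcription, 17 were above the filter, and their median log2 fold change was -0.26 with MT1-MMP siRNA against mock, 0.056 with alpha3 siRNA against mock and -0.33 between the siRNAs. In limma 0 of the 17 passed in any of the 3 comparisons, with 5, 0 and 8 at an unadjusted p under 0.05, beside 14.4%, 5.73% and 23.4% of all genes. The median of -0.26 was -0.42 when mock replicate 2 was left out and -0.44 with the filter at the 60th percentile, and that of 0.056 was 0.032 when alpha3 siRNA replicate 2 was left out and 0.086 when mock replicate 2 was. The 5 genes above the filter, of 8 listed for cytosolic elongation, had medians of 0.21, 0.25 and -0.29, with 0 passing and 1, 0 and 1 at an unadjusted p under 0.05, beside the same shares. Of 16 interferon gamma genes above the filter, set beside WARS1, the medians were 0.31, -0.051 and 0.34, with 3, 0 and 5 at an unadjusted p under 0.05. In limma 1 of these 16 passed in 1 comparison, beside 1.39% of all genes, HLA-B, an antigen-presenting molecule, which was higher with MT1-MMP siRNA than with alpha3 siRNA (1.73, SE 0.32, limma adjusted p = 0.0425). It did not pass when any single array of these groups was dropped (adjusted p from 0.0569 to 0.268), and it belongs to a family of close copies.

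Across the arrays the median signal lay between 72.9 and 83.1. MMP14, the gene of MT1-MMP, had 812 and 717 with its siRNA, 999 and 1804 with alpha3 siRNA, and 1971 and 3064 on the mock arrays. ITGA3, the gene of integrin alpha3, had 148 and 347 with its siRNA, 1481 and 1634 with MT1-MMP siRNA, and 1139 and 1290 on the mock arrays. Neither target passed against mock with its own siRNA (limma adjusted p = 0.139 for MMP14 and 0.136 for ITGA3). Of the 5 mesenchymal markers VIM lay between 12271 and 17700, while S100A4 was dim, between 22.8 and 89.7. With MT1-MMP siRNA against mock 4 of the 5 had a log2 fold change above 0, and S100A4 was at -0.28. The epithelial markers CDH1, EPCAM and KRT19 had signals under 30 on all arrays. The summed signal of the 5 mesenchymal markers was 46020 and 35611 with MT1-MMP siRNA, 26501 and 22259 under alpha3 siRNA, and 22568 and 26964 on the mock arrays. The 5 epithelial markers, mostly KRT8 and KRT18, summed to 2704 and 2266 with MT1-MMP siRNA, 4599 and 4175 under alpha3 siRNA, and 3000.3 and 3190 on the mock arrays. The 5 endothelial markers summed to between 102 and 191 and the 4 measured leukocyte markers to between 152 and 217, and the part of any of these markers in the results was not tested. In bulk RNA, fewer cells with a transcript and less of it per cell cannot be told apart.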

How the data were processed

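Total RNA of 6 HT1080 samples was measured on single-channel arrays. The values the authors deposited are intensity values per probe set on a linear scale, and their summarisation software is not given in the sources used here. A trimmed mean (the central 96% of signals) came to 249.5 to 249.9 on all 6 arrays, as after scaling to 1 target. Genes were named through the supplied platform annotation, where 19065 probe sets had 1 symbol, 1043 several and 2107 none listed, and 68 were controls. All 27 members matched a RefSeq gene record.

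Signals under 1 were set to 1 and log2(signal + 32) was taken. The filter kept 11828 probe sets whose mean exceeded 6.31 in log2, the 40th percentile, and each gene was represented by its brightest. limma 3.58.1 in R 4.3.3 fitted 3 group means to all 6 arrays (lmFit, eBayes with trend, 3 residual and 5.35 prior degrees of freedom). Benjamini-Hochberg adjustment ran over 8045 genes in each of 3 comparisons. The fit was tested on simulated data. The number of arrays limits the precision.

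The members and lists were chosen with earlier results of these data known. Named members are the 6 largest per comparison whose arrays did not overlap, plus AIMP1, GARS1, KARS1, EPRS1 and WARS1. Of the other lists up to 5 genes were named by size. Other genes were named to illustrate a count after their values were seen. No 2 arrays shared values on more than 92 probe sets. Figures were drawn with matplotlib 3.10.9.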

Additional observations from a re-analysis of the deposited data

How the results depend on the processing

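The count of synthetase genes past the threshold was 0 in each of the 3 comparisons under all 16 alternatives (scaling by quantiles or the 75th percentile, offsets of 1 and 100, no filter or the 60th percentile, the mean of probe sets, no trend, only the 2 groups, the replicate block, and leaving out each array). The lowest adjusted p among them was 0.148 for MT1-MMP siRNA against mock, 0.449 for alpha3 siRNA against mock and 0.0786 between the siRNAs, and up to 3, 1 and 6 genes had an unadjusted p under 0.05. Without 1 array a group of 1 remains, and that array is assumed to vary like the others.

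The median over all members ranged from -0.24 to 0.060 without 1 array for MT1-MMP siRNA against mock, and from -0.27 to -0.034 between the siRNAs. The cytosolic median for MT1-MMP siRNA against mock ranged from -0.23 to 0.12. The mitochondrial median between the siRNAs ranged from -0.21 to -0.011 without 1 array, and was -0.031 with the mean of the probe sets. Every other planned setting moved these medians by less than 1 SD between replicates.

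Signs turned for genes near 0. For MT1-MMP siRNA against mock, quantile normalization gave 0.0086 for GARS1 and -0.10 for KARS1, and the mean of the probe sets gave -0.13 for KARS1 and -0.098 for WARS1. Other probe sets gave 0.030 for EPRS1, -0.32 for KARS1 and -0.27 for WARS1. Without 1 array EPRS1 ranged from -0.52 to 0.34, GARS1 from -0.31 to 0.29, KARS1 from -0.0013 to 0.12 and WARS1 from -0.044 to 0.19. For alpha3 siRNA against mock the other probe set of WARS1 gave -0.0099, and without 1 array KARS1 ranged from -0.17 to 0.0060 and WARS1 from -0.017 to 0.31. Between the siRNAs KARS1 had -0.049 with the mean of its probe sets and -0.24 on the other one, and without 1 array EPRS1 ranged from -0.82 to 0.033 and WARS1 from -0.23 to 0.092. The cause was not tested. Among the genes of other lists, RPP40, POLR3K and HLA-B also lost their calls without a filter (adjusted p = 0.0748, 0.0587 and 0.0760), RPP40 and HLA-B with an offset of 1 (0.0525 and 0.0557) and with no trend (0.0553 and 0.0607), and HLA-B with the mean of its probe sets (0.0534).

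The arrays share only a number across groups. Correlations of same-numbered deviations were -0.18, -0.18 and 0.13, so the numbers were not taken as pairs. A batch shared by arrays with different numbers was not tested. With the replicate block 0 synthetase genes passed, with lowest adjusted p-values of 0.275, 0.953 and 0.161. Alternatives for the other lists and for the counts within pairs were added after the data were seen. With 2 arrays a group, only large changes could have passed.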
